A study of Mus musculus with 16 samples.

Results

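The genes described are those of the proteasome and of ubiquitin handling whose single platform symbol begins with Psma, Psmb, Psmc, Psmd, Psme, Ube2 or Usp, followed by a digit or by a letter and a digit. The rule uses names only and no measured value. It gave 89 genes, read by 141 of 15247 probes, among 7114 named genes and 12761 features, a feature being a gene after its probes were averaged or a single probe without one symbol. The proteasome core had 15 genes (7 alpha and 8 beta), the cap and activators 23 (5 with Psmc symbols, 14 Psmd and 4 Psme), the ubiquitin-conjugating enzymes 15 (Ube2), and the deubiquitinases 36 (Usp). Of the 89 genes 52 had 1 probe and 37 had several. The pattern also picks up Psmc3ip, a meiotic recombination factor, Psme3ip1, which binds a proteasome activator, and Uspl1, a protease of SUMO rather than of ubiquitin. They are no subunits or Usp enzymes of the pathway, and without them 86 genes and the same calls were left.

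Dual-colour expression arrays set RNA of mouse cells against a common reference RNA, with 8 arrays labelled WT and 8 labelled M833. The title of the series names Met mutations in MEFs (mouse embryonic fibroblasts, cultures grown from embryos). What M833 denotes, how many cultures or clones it covers and what the reference holds is not in the labels. In each cell type 4 arrays carried the sample in Cy5 and 4 in Cy3. Values are log2 ratios read as sample over reference, a direction that is likely from the titles and from the positive correlation of every pair of arrays but that no label states, so that higher and lower in M833 carry this limit throughout. Separate cultures are not stated for the arrays, and p-values therefore reflect the spread between these 16 arrays alone, part or all of which may be technical.

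Ubiquitin is activated by an E1 enzyme, passed to an E2 (the Ube2 proteins) and attached to a target with the help of an E3 ligase, while deubiquitinases such as the Usp proteases take it off again. Chains of ubiquitin can send a protein to the proteasome. There a cap recognises the chain, its ATPases unfold the protein, and the beta rings inside the barrel-shaped core cut it, behind alpha rings that form the gate. Fibroblasts make the constitutive form of the core, and interferon exchanges its catalytic subunits for those of the immunoproteasome. The immunoproteasome subunits Psmb8, Psmb9 and Psmb10 and the activator subunit Psme2 had 0 probes under these symbols and were not analysed here.

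The lowest correlation between any pair of arrays was r = 0.591, and 0.818 once WT replicate 2 was set aside, on which 49 log2 ratios exceeded 8. In each cell type replicates 1, 2, 5 and 6 deviated together, as did replicates 3, 4, 7 and 8, and the labels give no ground for these sets. Arrays of a set with opposite dyes had rank correlations of their deviations from the group mean of 0.36 to 0.57 in WT and 0.08 to 0.25 in M833, and arrays of different sets -0.60 to -0.36 and -0.24 to -0.01. These deviations were taken from the mean of the 4 arrays of a cell type and dye and add up to 0. Positive values within sets therefore go with negative ones between sets. The sets were read from the same arrays, so the correlations describe them and are no separate evidence for them. As a precaution the sets were also taken as a random block. Of the fibroblast markers 9 of 12 were measured, 4 lay above the reference in both cell types and 6 were lower in M833 (3 with the block), and the list averaged -0.35 to 0.07 on WT arrays against -0.66 to -0.25 on M833 arrays. Macrophage and leukocyte markers were below the reference on average on every array (-0.54 to -0.33 in WT, -1.66 to -1.25 in M833, 8 of 24 measured), and 7 of the 8 were lower in M833, with or without the block. Cell cycle genes were higher in M833 in 22 of 27 cases (21 with the block), with list means from -0.64 to -0.16 in WT and from 0.02 to 0.18 in M833. Within WT the cell cycle mean was -0.19 over replicates 1, 2, 5 and 6 and -0.61 over the other set. Over all features 10.0% were called higher and 15.9% lower, and 4.40% and 7.08% with the block. These markers moved with the cell types and, for the cell cycle, with the WT sets. Their part in the results that follow was not tested, and fewer cells of a kind cannot be told apart from less RNA per cell.

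Most proteasome and ubiquitin enzyme genes differed little between the cell types, and the differences that passed the test were small. Of the 89 genes 10 were higher and 13 lower in M833, and 66 did not pass (limma, Benjamini-Hochberg adjusted p under 0.05 over all features). That is 25.8%, close to the background of 25.9% of all features called (10.0% higher and 15.9% lower). It is below the 31.9% called among the named genes that are no members (13.1% higher, 18.9% lower). The called differences ran from 0.09 to 0.51 on the log2 scale in size, and 18 of the 23 were under 0.2. The balance of the directions depended on the centring of the arrays. Of the called genes 43.5% were higher in M833, against 63.6% (14 higher, 8 lower) when each array was centred on its median, where 24.9% of all features were called (12.5% higher, 12.4% lower). Scaling the arrays to one spread gave the same counts of members, with 9.94% of features higher and 16.8% lower (26.7% in all). With the sets of arrays as a random block 4 genes stayed higher and 3 lower, where 11.5% of all features were called (4.40% higher, 7.08% lower), and the other 16 had adjusted p-values from 0.0619 to 0.257.

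**Figure D1:**
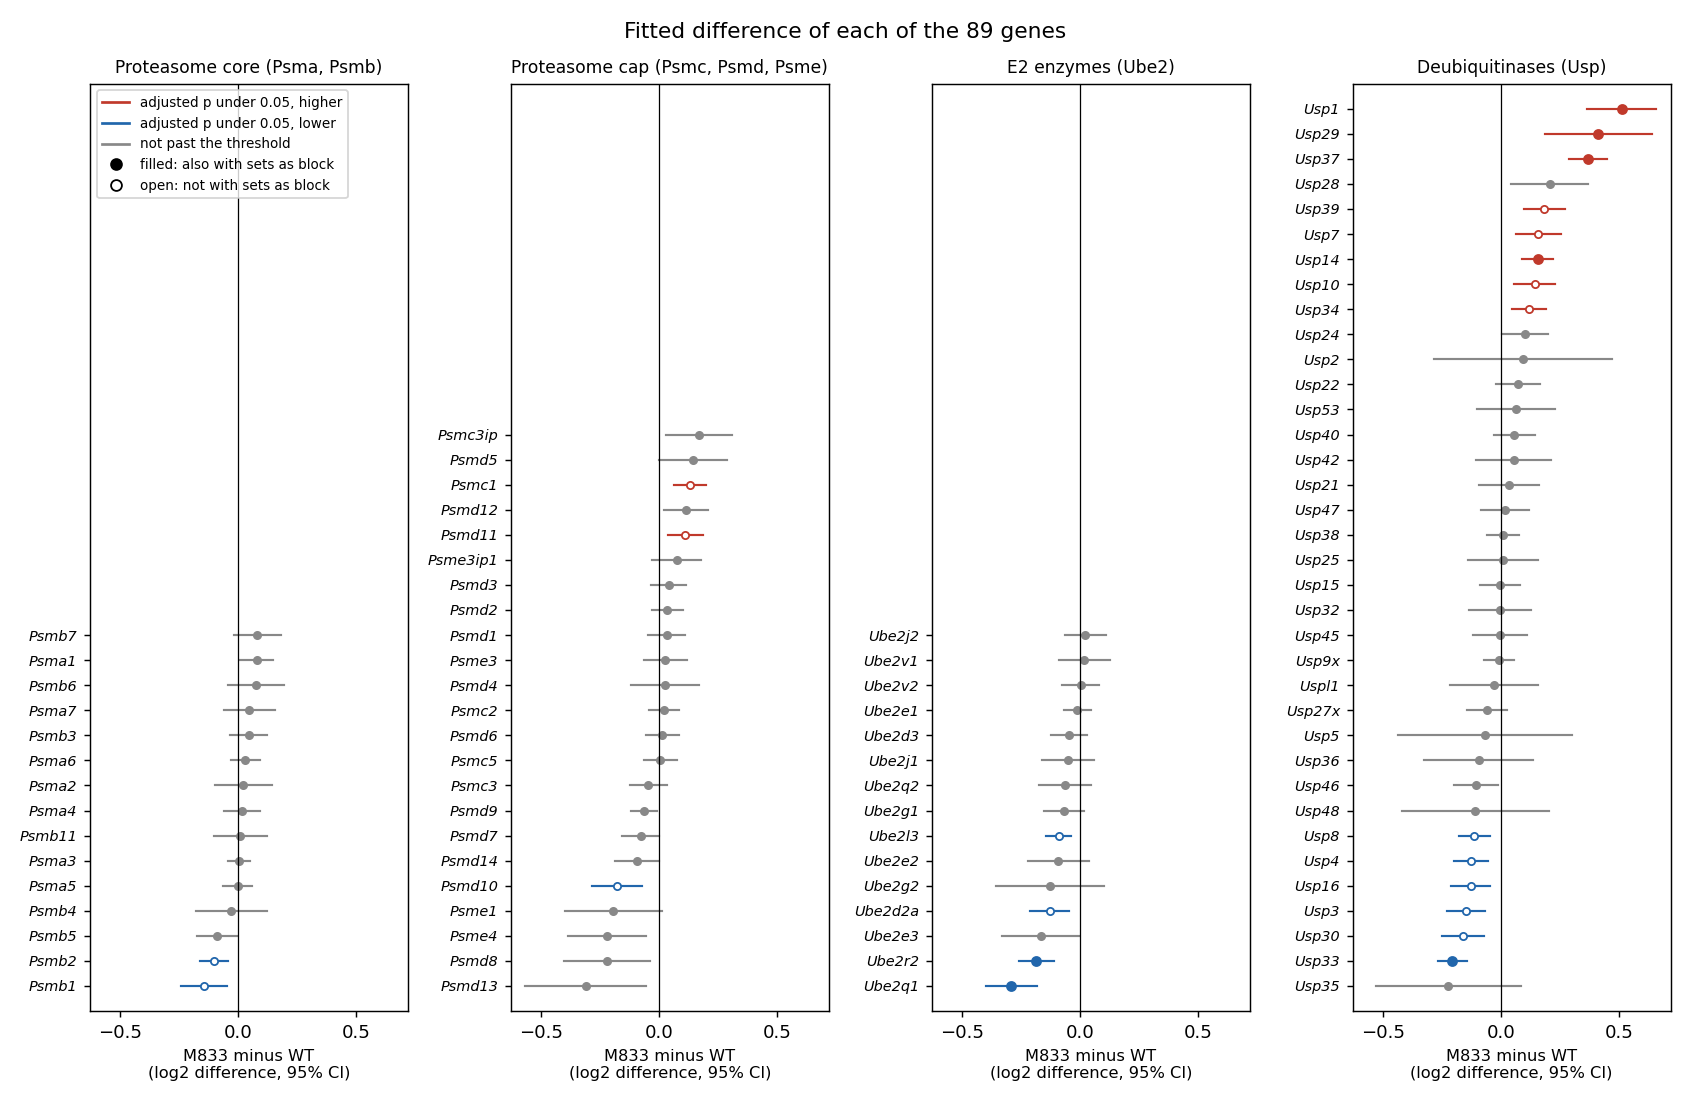
Fitted log2 difference M833 minus WT of each of the 89 genes (points) with 95% confidence intervals (lines), in 4 panels by gene group and sorted by size. Red and blue mark the 10 genes higher and the 13 lower at an adjusted p under 0.05, grey marks the 66 that did not pass, and filled coloured points mark the 7 also called with the sets as a block. The core genes lie closest to 0, and the differences above 0.3 are those of Usp1, Usp29 and Usp37.

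The core genes stood close together in the 2 cell types. The median difference of the 15 core genes was 0.02 with an interquartile range of 0.06, against a median of -0.03 and an interquartile range of 0.19 over all features. The core median depended on the processing. After scaling the arrays to one spread it was 0.08, with -0.04 over all features. Each of the 15 had a 95% confidence interval of its difference within 0.25 of 0 on the log2 scale, and 58.2% of all features did. With the sets as a block this held for 14 of the 15 and for 43.1% of features. None of the 7 alpha genes passed the limma test, and 1, Psma1, had an unadjusted p under 0.05. Their differences ran from -0.002 for Psma5 to 0.08 ± 0.03 for Psma1 (SE, n = 8 arrays per cell type; adjusted p = 0.092 with limma). Psma1 was called higher without M833 replicate 3 (0.10, adjusted p = 0.0362) and after centring (0.10, adjusted p = 0.0405). Psma3 showed the smallest error of the alpha genes. It ranged from 0.37 to 0.72 with a median of 0.55 on the WT arrays and from 0.41 to 0.70 with a median of 0.55 on the M833 arrays, so that the groups overlapped almost wholly. Over alternative settings the difference of Psma3 reached 0.11, and the gene was called in 1 of 29.

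Among the 8 beta genes Psmb1 and Psmb2, which encode subunits without a catalytic site, were lower in M833, 13.3% of the 15 core genes against 25.9% of all features called. Of all named genes 31.9% were called. Psmb1 ranged from 0.07 to 0.48 with a median of 0.34 in WT and from -0.06 to 0.49 with a median of 0.18 in M833, and the groups overlapped. Its difference was -0.15 ± 0.05 (SE; limma adjusted p = 0.0282). That call was lost, with adjusted p-values of 0.0507 to 0.0592, on leaving out any one of M833 replicates 4, 6 and 7 or WT replicates 6, 7 and 8. Psmb2 ranged from 0.27 to 0.64 with a median of 0.45 in WT and from 0.18 to 0.49 with a median of 0.38 in M833, and again the groups overlapped. Its difference of -0.10 ± 0.03 (adjusted p = 0.0113 with limma) was -0.02 after scaling. With the block both calls were lost, with adjusted p-values of 0.242 for Psmb1 and 0.154 for Psmb2.

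The 3 genes of the catalytic beta subunits of the constitutive core did not pass the test. Psmb5, the subunit with chymotrypsin-like activity, differed by -0.09 ± 0.04 (adjusted p = 0.117), Psmb6, with caspase-like activity, by 0.08 ± 0.05 (adjusted p = 0.332), and Psmb7, with trypsin-like activity, by 0.08 ± 0.05 (adjusted p = 0.212, all with limma). Psmb5 ranged from 0.19 to 0.51 in WT and from 0.17 to 0.32 in M833. It was called lower without WT replicates 1, 2, 5 and 6 (-0.17, adjusted p = 0.0034). Without WT replicates 3, 4, 7 and 8 Psmb6 (0.17, adjusted p = 0.0133) and Psmb7 (0.18, adjusted p = 0.0037) were called higher. Psmb11, a catalytic beta subunit known from the thymus, had a median of -0.11 in each cell type and was not called. Psmb3 (0.04) and Psmb4 (-0.03) made up the rest of the beta genes.

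The core genes also shared a dye effect. Their log ratios were higher with the sample in Cy5 in 13 of 15 cases, by a median of 0.26 on the log2 scale, against 55.7% of all features and a median of 0.02. The mean of the 15 genes lay between 0.38 and 0.43 on the 8 arrays with the sample in Cy5 and between 0.10 and 0.21 on the 8 with it in Cy3. Within each dye the ranges of the cell types overlapped, 0.38 to 0.40 in WT and 0.38 to 0.43 in M833 for Cy5, 0.10 to 0.21 in WT and 0.13 to 0.17 in M833 for Cy3. The dye term of the fit takes up this part, and no member passed the test for a dye effect that differed between the cell types (limma, 0 of 89 members and 0 of 12761 features, with 1 and 361 at an unadjusted p under 0.05). The cap genes had a median dye effect of 0.08, and those of the Ube2 and Usp genes were -0.001 and -0.02.

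**Figure D2:**
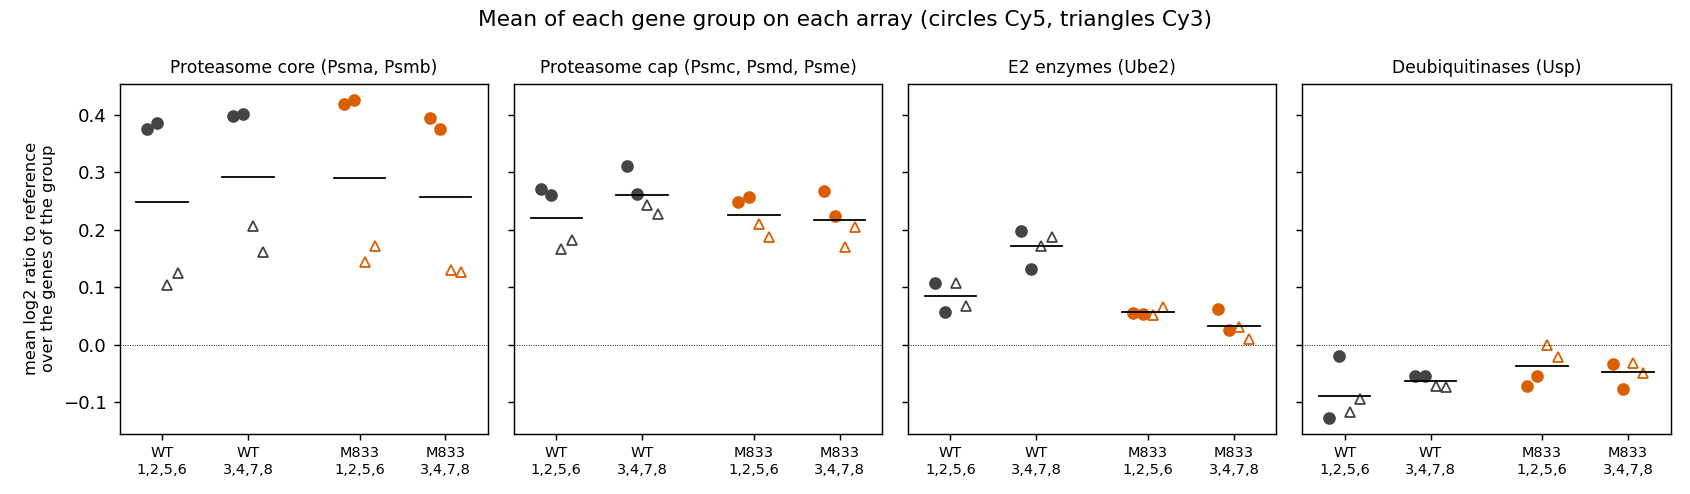
Mean log2 ratio to the reference over the genes of each group on each of the 16 arrays, in 4 panels, with arrays placed by cell type and set of replicates; circles have the sample in Cy5, triangles in Cy3, grey is WT, orange is M833, and lines are the means of 4 arrays. The core splits by dye and not by cell type, and the Ube2 means of WT replicates 3, 4, 7 and 8 (0.13 to 0.20) lie above all others.

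Promoters of 2 catalytic core genes are shown because they were the core promoters with a match to the antioxidant response element core, and they were chosen after the matches were seen. Each line gives the 250 bases before the start of a promoter entry, 5′ to 3′ on the gene's strand, from RefSeq on GRCm38.p6. Positions before a start are counted from that entry start. It was the annotated start of the gene for 60.4% of the promoter table. Capitals mark matches of 5 motifs searched on both strands. The antioxidant response element core was read as TGACNNNGC. The box named CCAAT was searched by those letters. The GC box was read as GGGCGG, the E2F site as TTTGGCGC, and the interferon-stimulated response element by its doubled GAAA core. A base may belong to more than one match. The window of Psmb5 is chr14:54617996-54618245, minus strand, and that of Psmb6 is chr11:70525107-70525356, plus strand.
Psmb5: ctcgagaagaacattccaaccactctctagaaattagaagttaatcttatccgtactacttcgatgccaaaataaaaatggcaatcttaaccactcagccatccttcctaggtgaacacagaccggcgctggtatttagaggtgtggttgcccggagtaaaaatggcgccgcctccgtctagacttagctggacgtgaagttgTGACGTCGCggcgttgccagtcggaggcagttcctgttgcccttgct
Psmb6: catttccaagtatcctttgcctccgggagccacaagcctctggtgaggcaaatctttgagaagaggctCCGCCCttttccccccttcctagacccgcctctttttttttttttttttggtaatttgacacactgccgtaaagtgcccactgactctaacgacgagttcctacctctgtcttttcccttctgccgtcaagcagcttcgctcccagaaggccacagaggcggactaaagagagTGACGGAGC
The TGACNNNGC match begins 47 bases before the entry start of Psmb5 and 9 bases before that of Psmb6. Psmb6 has a GC box on the other strand at 182 bases as well. The annotated start of Psmb6, at 70525324, lies inside its window, so its TGACNNNGC match lies after that annotated start. The motif was found in 2 of 12 core and 2 of 20 cap promoters in the table (the cap genes were Psmd9 and Psmd12), and in 11.5% of the promoters of 27025 genes. None of these 4 genes passed the test for M833 against WT. The CCAAT box was in 7 of 12 core promoters and in 37.5% of all. A match describes letters and shows no binding. Counts of promoters here and below are counts of genes, and a gene counted where any of its promoter entries held a match. Psmb1 and Psmb2 are not in the promoter table.

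In the cap 3 of 23 genes passed the test, Psmc1 and Psmd11 higher and Psmd10 lower in M833. That is 13.04%, against 25.9% of all features and 31.9% of all named genes. The median difference of the 23 was 0.02 with an interquartile range of 0.14. Psmc1 encodes one of the ATPases that open the core and unfold the substrate. It ranged from 0.18 to 0.40 with a median of 0.27 in WT and from 0.35 to 0.49 with a median of 0.42 in M833. The ranges overlapped at their edges, and all 8 M833 arrays lay above the WT mean of their dye. The difference was 0.13 ± 0.03 (limma adjusted p = 0.00608), or 9.56% higher, and the adjusted p rose to 0.0873 with the block. Of the other genes with Psmc symbols, the ATPase genes Psmc2 (0.02), Psmc3 (-0.04) and Psmc5 (0.01) were not called. Psmc3ip (0.17 ± 0.07, adjusted p = 0.0697) was not called either, but passed after centring and without WT replicate 2 (0.19, adjusted p = 0.0442) or WT replicate 5 (0.21, adjusted p = 0.0215).

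Psmd11, a scaffold subunit of the lid, ranged from -0.04 to 0.31 with a median of 0.21 in WT and from 0.22 to 0.40 with a median of 0.29 in M833, and the groups overlapped. Its difference was 0.11 ± 0.04 (limma adjusted p = 0.0288). The call was lost without M833 replicate 2, 3 or 6, at adjusted p-values of 0.0527 to 0.0569, and with the block (adjusted p = 0.257). Psmd10, known as gankyrin, is a chaperone of cap assembly rather than a stable subunit. It ranged from -0.004 to 0.76 with a median of 0.30 in WT and from -0.14 to 0.47 with a median of 0.18 in M833. The groups overlapped widely, and its dye effect was 0.49. The difference was -0.18 ± 0.05 (adjusted p = 0.0145). Leaving out WT replicates 1, 2, 5 and 6 gave -0.07 and leaving out the other WT set gave -0.29, and the call was lost with the block (adjusted p = 0.0824).

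The largest difference of the cap was that of the lid subunit Psmd13, which did not pass. It ranged from 0.03 to 1.04 in WT and from 0.07 to 0.61 in M833, with medians of 0.64 and 0.27, and differed by -0.31 ± 0.12 (limma adjusted p = 0.0705). Without WT replicate 5 it was -0.39 and passed (adjusted p = 0.0107), as it did without M833 replicate 8 (-0.35, adjusted p = 0.0452). Psmd8, another lid subunit, stood at -0.22 ± 0.09 (adjusted p = 0.0702) and passed without WT replicate 2 or 6, both at -0.26, with adjusted p-values of 0.032 and 0.037. Psmd12 was at 0.12 ± 0.04 (adjusted p = 0.0631) and passed at 0.13 without WT replicate 3 or 8. Psmd14, the deubiquitinase built into the lid, was at -0.09 ± 0.04 (adjusted p = 0.138) and passed without WT replicate 5 (-0.12, adjusted p = 0.0489). The remaining Psmd genes, among them the scaffold Psmd2 (0.04) and the ubiquitin receptor Psmd4 (0.02), lay between -0.08 for Psmd7 and 0.14 for the assembly chaperone Psmd5, and none of them was called.

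None of the 4 genes with Psme symbols passed the limma test, and 1, Psme4, had an unadjusted p under 0.05. Psme4 encodes a single-chain activator of the core. It ranged from 0.75 to 1.01 with a median of 0.80 in WT and from 0.15 to 0.82 with a median of 0.64 in M833. The difference was -0.22 ± 0.08 (limma adjusted p = 0.0502), just above the threshold. One M833 array, replicate 4, was far below the rest. Without it the difference was -0.15 (adjusted p = 0.0378), and the gene also passed without M833 replicate 3 (-0.25, adjusted p = 0.0265) or 8 (-0.24, adjusted p = 0.042). Psme1, a subunit of the interferon-inducible activator, was the cap gene farthest below the reference, at medians of -0.72 in WT and -0.94 in M833, and its difference of -0.19 ± 0.10 was not called (adjusted p = 0.154). Psme3, the nuclear activator of the same family, had medians of -0.45 and -0.46, and Psme3ip1 differed by 0.07.

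Of the 15 Ube2 genes 4 were lower in M833 and none was higher. The count is 26.7% against 25.9% of all features in either direction and 15.9% lower. Of all named genes 31.9% were called in either direction and 18.8% lower. At an unadjusted p under 0.05 the counts were 0 higher and 5 lower. In all, 12 of the 15 differences were negative and the median was -0.07. Leaving out WT replicates 1, 2, 5 and 6 brought that median to -0.12, and leaving out WT replicates 3, 4, 7 and 8 brought it to 0.0004, so its size rested on the second set of WT arrays. The mean of the 15 genes ranged from 0.06 to 0.11 on the first WT set, from 0.13 to 0.20 on the second and from 0.01 to 0.07 on the M833 arrays. The ranges of WT and M833 met at the edge, where the first WT set reached down to the level of M833.

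Ube2q1, an E2 with a long amino-terminal extension, had the largest difference of this group. It ranged from 0.72 to 1.07 with a median of 0.87 on the WT arrays and from 0.48 to 0.74 with a median of 0.56 on the M833 arrays. Within each dye orientation all 4 M833 arrays lay below all 4 WT arrays, and across dyes the ranges overlapped slightly. Such a separation in both dyes was found for 3 of the 89 genes downward and for 4 upward, against 6.49% and 4.01% of all features (10.5% in either direction). The difference was -0.29 ± 0.05 (limma adjusted p = 0.00058), 18.3% lower in M833, and it held with the block (adjusted p = 0.0134). Scaling the arrays to one spread reduced it to -0.16 and ended the call (adjusted p = 0.0735). WT replicates 1, 2, 5 and 6 averaged 0.79, the other WT set 0.98, and the M833 sets 0.57 and 0.61.

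Ube2r2, an E2 that works with cullin ligases, ranged from 0.53 to 0.75 with a median of 0.60 in WT and from 0.37 to 0.49 with a median of 0.43 in M833. All 8 M833 arrays lay below all 8 WT arrays, also across dyes. The difference was -0.18 ± 0.03 (limma adjusted p = 0.001), and held with the block (adjusted p = 0.0227). It was lost after scaling (-0.09, adjusted p = 0.218). Ube2d2a, which serves many ligases, ranged from 0.07 to 0.27 in WT and from -0.10 to 0.10 in M833, with medians of 0.13 and 0.05, and the groups overlapped. It differed by -0.13 ± 0.04 (adjusted p = 0.0222, or 0.173 with the block), and by -0.08 without WT replicates 3, 4, 7 and 8. Ube2l3, the partner of HECT and RING-between-RING ligases, ranged from 0.06 to 0.16 in WT and from -0.03 to 0.08 in M833, with medians of 0.11 and 0.02. It differed by -0.09 ± 0.03 (adjusted p = 0.016, or 0.114 with the block), and the groups overlapped narrowly. Both calls were lost after centring, at -0.10 for Ube2d2a and -0.07 for Ube2l3.

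The other 11 Ube2 genes did not pass. They include the endoplasmic reticulum enzymes Ube2j1 (-0.05) and Ube2j2 (0.02), the highest value of the group, the catalytically inactive partners Ube2v1 (0.02) and Ube2v2 (0.003), and Ube2d3 (-0.05). Ube2e3 differed by -0.17 ± 0.08 (adjusted p = 0.127 with limma) and passed without M833 replicate 6 (-0.21, adjusted p = 0.0445). Ube2g2, which acts in degradation of proteins from the endoplasmic reticulum, showed the widest spread. It ranged from -0.61 to 0.38 in WT and from -0.48 to -0.10 in M833 and differed by -0.13 ± 0.11. Without WT replicates 1, 2, 5 and 6 it was lower in M833 (-0.40, adjusted p = 2.07e-05) and without WT replicates 3, 4, 7 and 8 it was higher (0.15, adjusted p = 0.014). The 2 WT sets thus gave opposite calls for this gene.

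The promoters of the Ube2 genes that held with the block are shown with the same 5 motifs in capitals, from RefSeq on GRCm38.p6. The window of Ube2q1 is chr3:89773359-89773608, plus strand, and that of Ube2r2 is chr4:41135771-41136020, plus strand.
Ube2q1: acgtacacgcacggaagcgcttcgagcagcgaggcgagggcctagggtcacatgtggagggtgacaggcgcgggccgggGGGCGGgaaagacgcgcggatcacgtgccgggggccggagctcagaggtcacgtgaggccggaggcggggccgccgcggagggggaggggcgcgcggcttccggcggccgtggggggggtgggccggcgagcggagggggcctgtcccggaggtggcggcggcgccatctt
Ube2r2: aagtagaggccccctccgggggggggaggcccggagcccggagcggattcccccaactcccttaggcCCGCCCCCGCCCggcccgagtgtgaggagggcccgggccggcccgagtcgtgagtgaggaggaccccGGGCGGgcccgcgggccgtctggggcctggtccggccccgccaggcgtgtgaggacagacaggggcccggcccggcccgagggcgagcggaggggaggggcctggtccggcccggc
Both windows are rich in G and C, with GC boxes beginning 171 bases before the start of Ube2q1 and 183, 177 and 116 bases before that of Ube2r2. Of the Ube2 genes in the promoter table Ube2d3 has 4 entries, and Ube2e2, Ube2j2 and Ube2q2 have 2 each. A GC box was in at least 1 entry of 10 of 11 Ube2 genes, of 47 of 69 members and of 35.4% of all genes with a promoter. It was in 6 of 9 promoters of members lower in M833, 4 of 7 of those higher and 37 of 53 of those not called.

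The Usp genes held the largest differences, and 14 of the 36 passed the test, 8 higher and 6 lower in M833. That is 38.9%, against 25.9% of all features and 31.9% of all named genes. The median difference was 0.01 with an interquartile range of 0.20, near the 0.19 of all features. The 4 genes higher in M833 with arrays apart in both dyes, Usp1, Usp37, Usp29 and Usp14, were all Usp genes, as was 1 of the 3 lower, Usp33. These 5 were also the Usp genes called with the block, 13.9% of 36 against 11.5% of all features.

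Usp1 encodes the deubiquitinase of the repair and replication proteins FANCD2 and PCNA. It ranged from -0.89 to -0.21 with a median of -0.61 on the WT arrays and from -0.33 to 0.15 with a median of -0.08 on the M833 arrays. Within each dye all M833 arrays lay above all WT arrays. The difference was 0.51 ± 0.07 (SE, n = 8 arrays per cell type; limma adjusted p = 6e-05), or 1.43-fold, and held with the block (adjusted p = 0.000527). The WT sets averaged -0.43 and -0.75 and the M833 sets -0.14 and -0.02, so that all pairs of sets kept the order. Over alternative settings the difference ran from 0.35 to 0.67.

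Usp37, a deubiquitinase known to act on cyclin A, ranged from -0.77 to -0.51 with a median of -0.63 in WT and from -0.33 to -0.19 with a median of -0.26 in M833. No array of one cell type reached the range of the other. The difference was 0.37 ± 0.04 (limma adjusted p = 5.23e-06), 1.29-fold, and 0.000484 was its adjusted p with the block. The 2 genes, with Usp33, kept their calls in 28 of 29 alternative settings. The exception was the comparison of 2 set means with 2, which called 0 features by limma, while 7 members and 1675 features had an unadjusted p under 0.05 there. Cell cycle genes were likewise higher in M833 and lower in the second WT set than in the first. The means of the first and second WT set were -0.43 and -0.75 for Usp1 and -0.57 and -0.69 for Usp37, and the part of cell cycle genes in both differences was not tested.

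Usp29, an imprinted gene expressed from the paternal allele, ranged from -0.96 to -0.27 with a median of -0.62 in WT and from -0.30 to -0.02 with a median of -0.23 in M833. The arrays were apart within each dye and overlapped slightly across dyes. Its difference was 0.41 ± 0.11 (limma adjusted p = 0.00969), 1.33-fold, and 0.036 was the adjusted p with the block. WT replicates 1, 2, 5 and 6 averaged -0.88 and the other WT set -0.34, against -0.19 and -0.20 in M833. The difference was 0.14 without the first WT set (adjusted p = 0.0612) and 0.69 without the second (adjusted p = 3.77e-06). The first WT set thus held most of the difference.

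The promoters of Usp29 and Usp37 are printed as those of the largest increases in the table, which does not hold Usp1. They are the 250 bases before the start of the promoter entry in RefSeq on GRCm38.p6, with the same motifs in capitals. The window of Usp29 is chr7:6730333-6730582, plus strand, and that of Usp37 is chr1:74505822-74506071, minus strand. The annotated start of Usp29, at 6730559, lies inside its window. The window of Usp37 lies within the annotated gene (74435510 to 74544286) and not before its annotated start.
Usp29: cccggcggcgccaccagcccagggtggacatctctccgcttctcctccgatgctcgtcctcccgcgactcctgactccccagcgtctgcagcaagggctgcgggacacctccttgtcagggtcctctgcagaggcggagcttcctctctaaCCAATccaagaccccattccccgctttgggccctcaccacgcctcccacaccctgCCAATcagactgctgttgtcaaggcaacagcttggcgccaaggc
Usp37: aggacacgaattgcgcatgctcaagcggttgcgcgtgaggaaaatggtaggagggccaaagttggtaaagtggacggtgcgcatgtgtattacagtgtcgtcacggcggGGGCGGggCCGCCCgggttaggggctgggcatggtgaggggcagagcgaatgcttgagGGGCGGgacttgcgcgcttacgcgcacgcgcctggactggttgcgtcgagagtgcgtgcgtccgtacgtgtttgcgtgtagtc
Usp29 has CCAAT boxes beginning 99 and 44 bases before the start of its entry. Usp37 has GC boxes at 141, 133 and 83 bases, the middle one on the other strand. The CCAAT box was in 4 of 26 Usp promoters against 37.5% of all promoters. The E2F letters TTTGGCGC were in 0 of 69 member promoters and in 0.485% of all, which says only that these letters are not in the windows. The antioxidant response element core was in 1 of 7 promoters of members higher in M833, that of Usp34, and in 0 of 9 of those lower.

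**Figure D3:**
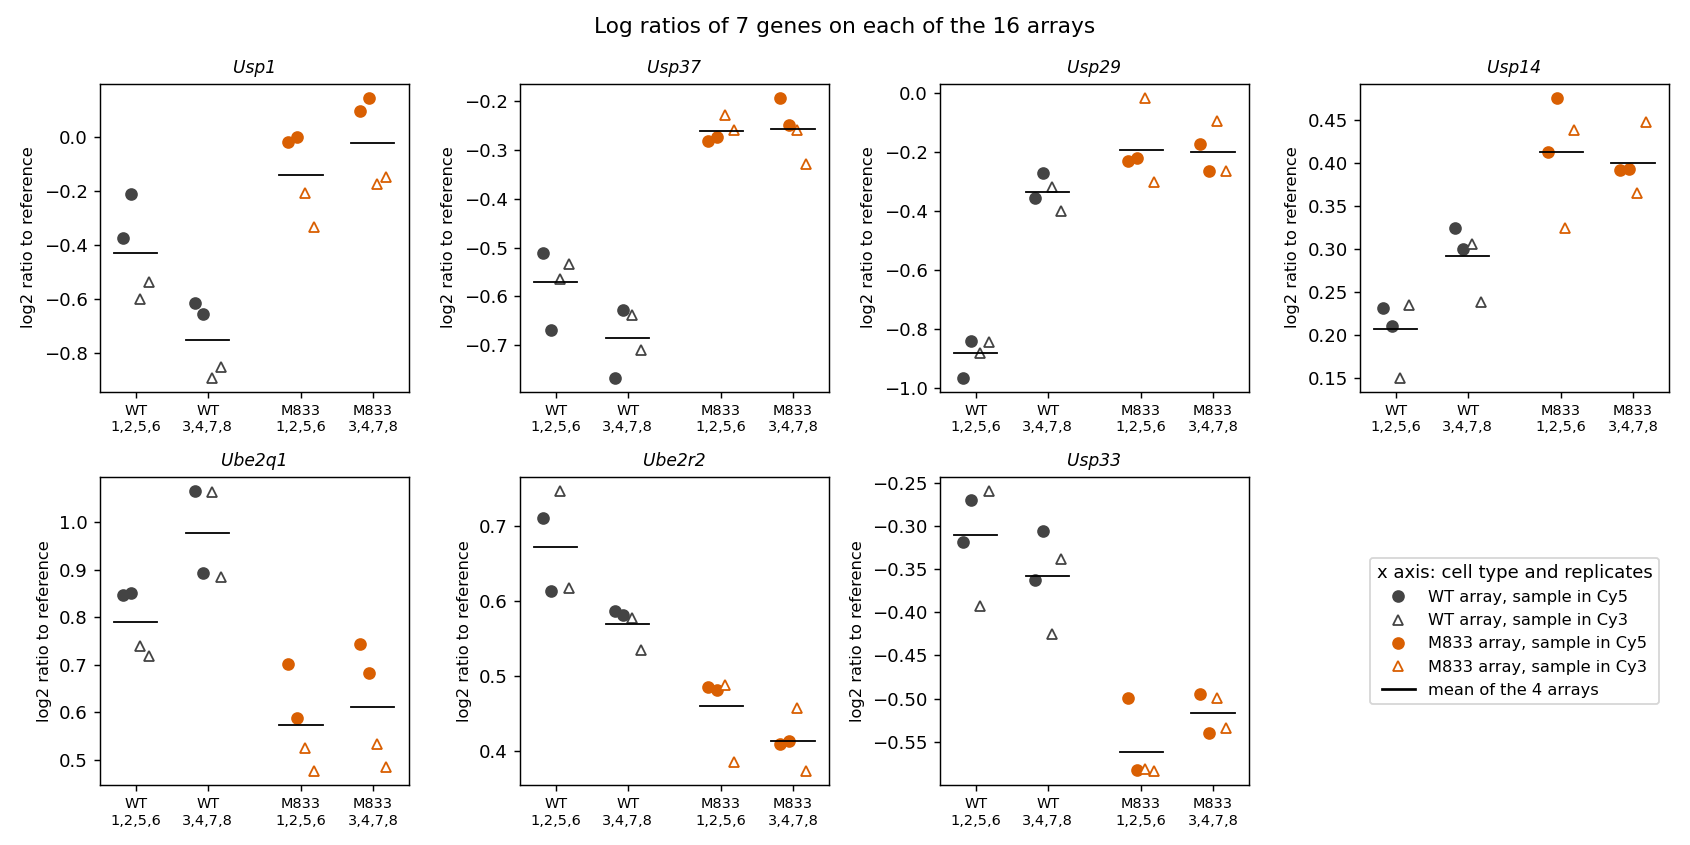
Log2 ratio to the reference of the 7 genes whose arrays lay apart in both dyes, 1 panel a gene with its own scale, on each of the 16 arrays; circles have the sample in Cy5, triangles in Cy3, grey is WT, orange is M833, and lines are the means of the 4 arrays of a set. M833 arrays lie higher for Usp1, Usp37, Usp29 and Usp14 and lower for Ube2q1, Ube2r2 and Usp33, and Usp29 splits within WT at -0.88 and -0.34.

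Usp14, a deubiquitinase that sits on the proteasome cap, ranged from 0.15 to 0.32 with a median of 0.24 in WT and from 0.32 to 0.48 with a median of 0.40 in M833. The ranges met without overlapping. Its difference was 0.16 ± 0.03 (limma adjusted p = 0.00145, or 0.0339 with the block), 11.4% higher. The remaining genes higher in M833 were called without the block only. Usp39, a splicing factor related to the family but without protease activity, differed by 0.18 ± 0.04 and had medians of 0.25 in WT and 0.43 in M833. Usp7, which acts on Mdm2 and p53, differed by 0.16 ± 0.04 with medians of -0.64 and -0.49, but by 0.04 after scaling and by 0.07 without WT replicates 1, 2, 5 and 6. Usp10 differed by 0.14 ± 0.04 (its 2 probes by 0.06 and 0.23) with medians of -0.41 and -0.25, and Usp34 by 0.12 ± 0.03 with medians of 0.14 and 0.28. Their adjusted p-values with limma were 0.00345, 0.015, 0.0163 and 0.014 in this order, and 0.096, 0.105, 0.123 and 0.142 with the block. For these 4 genes the ranges of the cell types overlapped, from 0.16 to 0.38 and from 0.29 to 0.59 for Usp39, from -1.05 to -0.41 and from -0.73 to -0.34 for Usp7, from -0.47 to -0.29 and from -0.35 to -0.06 for Usp10, and from 0.03 to 0.30 and from 0.18 to 0.37 for Usp34.

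Usp33 was the deubiquitinase gene with the largest called decrease. It ranged from -0.43 to -0.26 with a median of -0.33 in WT and from -0.58 to -0.50 with a median of -0.54 in M833, and no arrays overlapped. The difference was -0.21 ± 0.03 (limma adjusted p = 0.000104), 13.3% lower, and 0.00664 was its adjusted p with the block. Usp30, which sits on the outer membrane of mitochondria, differed by -0.16 ± 0.04 (medians of 0.56 and 0.43), and by -0.07 after scaling. Usp3 and Usp16, both known to remove ubiquitin from histones, differed by -0.15 ± 0.04 (medians of 0.09 and -0.09) and -0.13 ± 0.04 (0.26 and 0.12). Usp4 differed by -0.12 ± 0.03 (medians of 0.10 and 0.04), and Usp8, which acts on receptors at endosomes, by -0.11 ± 0.03 (0.27 and 0.16). In these 5 genes adjusted p-values with limma were 0.0115, 0.00965, 0.0245, 0.013 and 0.0127 in this order, and 0.144, 0.0619, 0.0974, 0.177 and 0.157 with the block. Ranges of WT and M833 were 0.51 to 0.71 and 0.27 to 0.52 for Usp30, -0.05 to 0.21 and -0.15 to 0.03 for Usp3, 0.15 to 0.35 and 0.05 to 0.17 for Usp16, -0.01 to 0.35 and -0.21 to 0.17 for Usp4, and 0.22 to 0.35 and 0.12 to 0.24 for Usp8, with overlap in each. Usp16 lost its call without M833 replicate 5 (-0.12, adjusted p = 0.0502), and was -0.04 without WT replicates 3, 4, 7 and 8. Usp3 was -0.07 without WT replicates 1, 2, 5 and 6.

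Of the 22 Usp genes that did not pass, Usp28 came nearest, at 0.21 ± 0.08 (limma adjusted p = 0.0612). It passed without M833 replicate 2 or 8, both at 0.24, and after centring. Usp46 (-0.10, adjusted p = 0.0916) passed without WT replicate 5 (-0.12, adjusted p = 0.0418). Usp35, Usp48 and Usp5 had wide intervals, and WT replicate 2 read 1.48, 1.22 and 1.66 for them. Without that array their differences were -0.07, 0.05 and 0.08, against -0.22, -0.11 and -0.07 with it. The other uncalled Usp genes lay between -0.09 for Usp36 and 0.10 for Usp24, among them the X-linked Usp9x (-0.01) and the histone deubiquitinase Usp22 (0.07). Of all 66 uncalled members 34 were called in at least 1 alternative setting and 32 in none.

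Against the reference the proteasome genes mostly lay high in both cell types. In the core 12 of 15 and in the cap 18 of 23 genes had a mean log2 ratio above 0 in WT and in M833, against 7 of 15 Ube2 genes, 16 of 36 Usp genes, 43.7% of named genes and 47.5% of all features. These are ratios to an RNA of unstated make-up and do not rank the genes by level. The highest median in WT was that of Ube2j1 (0.997), with Usp36, Ube2q1 and Psme4 next at 0.87, 0.87 and 0.80. The arrays of Usp36 ranged from 0.01 to 1.68 in WT. At the low end Usp2 stood at -1.17 in WT and -1.08 in M833, and Usp28 at -1.09 and -0.88, all as medians. Neighbours such as Usp2 and Usp28 in WT (-1.72 to -0.72 and -1.32 to -0.83) overlapped in their arrays. If the ratios were reference over sample, these 12 core and 18 cap genes would lie below the reference, Usp2 and Usp28 would stand at the high end and Ube2j1 at the low end.

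**Figure D4:**
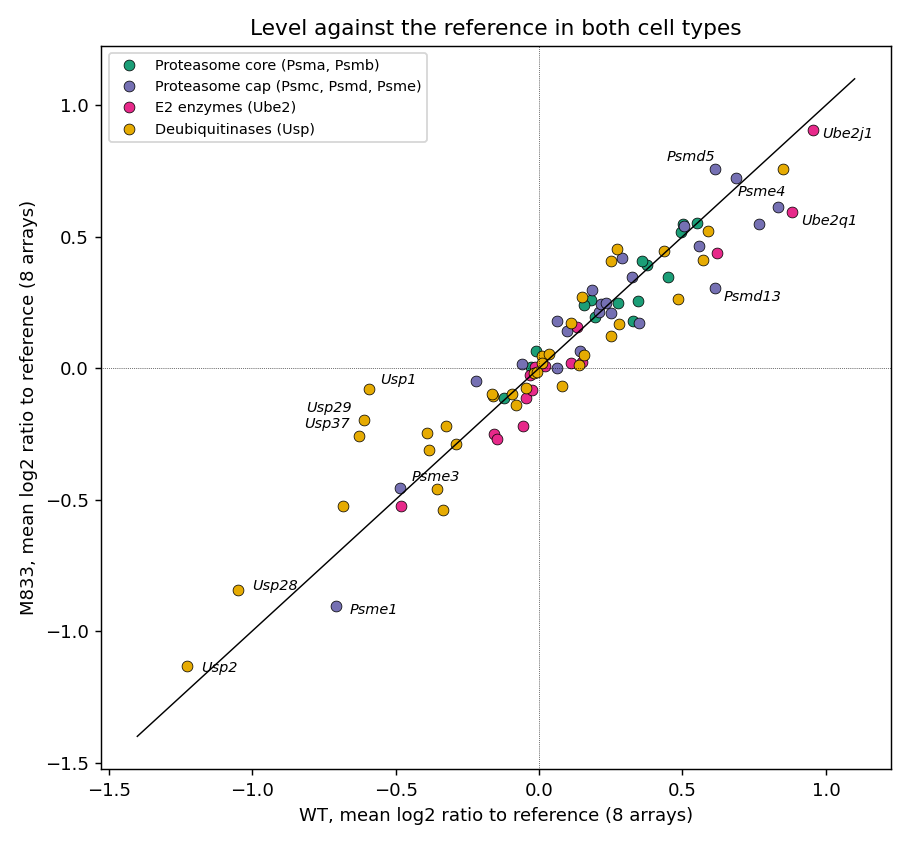
Mean log2 ratio to the reference of each of the 89 genes in WT (x axis, 8 arrays) and in M833 (y axis, 8 arrays), coloured by gene group, with the line of equal values and some genes named. Points above the line are higher in M833; the core genes follow the line, and Usp1, Usp29 and Usp37 lie farthest above it.

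The other genes of the pathway were taken from lists chosen by name, of which 156 genes were measured, 12 higher and 33 lower in M833. These 45 are 28.8% of the 156, near the 25.9% of all features and the 31.9% of all named genes. With the sets as a block 6 were higher and 18 lower, where 11.5% of all features were called (4.40% higher, 7.08% lower). Among 16 assembly factors and regulators 1 was higher and 3 were lower (0 and 1 with the block). Nfe2l1, a transcription factor that raises proteasome genes when the proteasome is impaired, ranged from 0.30 to 0.85 in WT and from 0.01 to 0.56 in M833 and differed by -0.29 ± 0.03 (limma adjusted p = 1.07e-05, or 0.000781 with the block). Nfe2l2, the transcription factor of the oxidative stress response, differed by -0.14 ± 0.03 and the assembly chaperone Pomp by -0.18 ± 0.05, while the cap-bound deubiquitinase Uchl5 was 0.18 ± 0.05 higher. These 3 calls were lost with the block, with limma adjusted p-values of 0.105, 0.108 and 0.124. The core genes had a median difference of 0.02 in the same fit. The list as a whole had a median of -0.01.

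Among 14 E2 and related genes outside the symbol pattern 3 were higher and 2 lower, with or without the block. That is 35.7%, against 25.9% of all features (10.0% higher, 15.9% lower). With the block 11.5% of all features were called (4.40% higher, 7.08% lower). Ube2c, the E2 of the anaphase-promoting complex, ranged from -1.54 to -0.67 with a median of -1.08 in WT and from -0.57 to -0.21 with a median of -0.35 in M833, with no overlap. Its difference was 0.70 ± 0.09 (limma adjusted p = 5.78e-05). Ube2t, the E2 of FANCD2, was 0.32 ± 0.06 higher, and Ube2h was -0.34 ± 0.06 and Ufc1, the E2 of the modifier UFM1, -0.22 ± 0.04 on the same scale. Of 12 genes of the anaphase-promoting complex 4 were higher, among them its activators Cdc20 (0.66 ± 0.08) and Fzr1 (0.37 ± 0.07) and its subunit Cdc27 (0.12 ± 0.03), and 1 was lower, the subunit Anapc16 (-0.18 ± 0.03). In all 41.7% of the genes of the complex were called, against the same 25.9% of all features. With the block 2 genes of the complex were higher and 1 lower, and Cdc27 was not called (limma adjusted p = 0.0678). Cdc20 also stands in the list of cell cycle genes.

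In the antigen processing and interferon list 6 of 10 genes were lower and none was higher, with a median of -0.32. With the block 3 were lower, and of all features 15.9% were lower without it and 7.08% with it. The peptide loading genes Tapbp (-0.45 ± 0.06) and Tap2 (-0.36 ± 0.07) and the interferon-induced genes Ifitm3 (-0.57 ± 0.11) and Bst2 (-0.34 ± 0.08) were among them, of which Bst2 lost its call with the block (limma adjusted p = 0.119). The macrophage markers given above were lower in M833 as well, and their part in this list was not tested. Of 14 genes of p97 and of degradation from the endoplasmic reticulum 5 were lower and none higher, led by Derl2 (-0.22 ± 0.03) and Faf2 (-0.16 ± 0.03). The 36 HECT, RING and U-box ligases had 2 higher, among them Trim28 (0.22 ± 0.04), and 8 lower, among them Rnf13 (-0.38 ± 0.04) and Arih1 (-0.15 ± 0.03). That is 27.8% of them, against 25.9% of all features (10.0% higher, 15.9% lower). The 21 cullin ligase genes had 1 higher, Fbxo5 (0.26 ± 0.08), and 3 lower. The list of 23 other deubiquitinases had 0 higher and 3 lower, among them Senp7 (-0.12 ± 0.04). It also holds Senp proteases of SUMO and subunits without protease activity such as Cops6. The 6 ubiquitin-like genes had 0 higher and 2 lower (Ubl3 at -0.32 ± 0.04 and Ubl5 at -0.19 ± 0.03). No gene of ubiquitin itself was measured in that list. The 5 E1 genes, most of them for ubiquitin-like modifiers, had 1 higher (Sae1, of the E1 of SUMO, at 0.11 ± 0.04) and 0 lower. Called in either direction were 19.05%, 13.04%, 33.3% and 20% of these lists in this order, against 25.9% of all features. With the block 3 genes of p97 and degradation from the endoplasmic reticulum and 5 of the HECT, RING and U-box ligases were still lower. So were Josd2 in the list of other deubiquitinases, Ubl3 and Ubl5. Of all features 4.40% were higher and 7.08% lower with the block. Trim28 was still higher with it, and no cullin ligase or E1 gene was called, Fbxo5 and Sae1 having limma adjusted p-values of 0.0908 and 0.174.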

How the data were processed

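Total RNA was compared with a common reference on two-colour arrays in 8 WT and 8 M833 samples, grouped by their titles and numbered in the order of the series. The deposited log2 ratios had been normalised by the authors with limma (version not given), per the submitters' processing notes. The log2 scale was read from the values, and how background was corrected, ratios normalised and spots filtered is not given in the sources used here. Probe intensities were not used here, so dim probes could not be filtered, and the number of arrays limits the precision. Probes were named through the platform annotation (9600 with one symbol, 214 with several, 5433 with none), all 89 members matched RefSeq, and probes of a gene were averaged.

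All 12761 features entered one linear model over the 16 arrays (lmFit and eBayes of limma 3.58.1, R 4.3.3) with terms for cell type and dye. A feature was called at a Benjamini-Hochberg adjusted p below 0.05, taken over the whole table. Errors given with differences are standard errors from this model. The block used duplicateCorrelation, with a consensus correlation of 0.324 between arrays of a set. Arrays counted as apart where, in both dyes, the 4 of one group all lay beyond the other 4. The fit was also run on simulated data with independent noise on each array. Such data hold no correlation within sets, so the run cannot speak to calls that depend on the sets. Of promoters 69 of 89 members were in the RefSeq table.

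The members and lists were chosen with earlier results of these data known, and a gene without a measured value was dropped from the antigen processing list after the data were seen. Any member could be named. Called members were given their range and median, and of each pathway list up to 4 called genes by smallest adjusted p were named. Alternatives were centring, scaling, no dye term, single probes, robust moderation, one dye at a time, the sets as block or as replicates, and leaving out sets, 3 M833 arrays (replicates 6, 7 and 8) or single arrays.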

Additional observations from a re-analysis of the deposited data

Results flagged for a closer look

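A single distant array was looked for in 186 groups of 8 arrays (the 89 genes and the means of their 4 groups, in each cell type). Of these 10 held one. Chance flags about 1 in 20 groups of like values, and 10 of 186 is near that rate. Each group mixed arrays of both dyes, so the rate need not hold for genes with a dye effect. WT replicate 2, the array with 49 values above 8, was the highest of its group for Usp35 at 1.48, for Usp48 at 1.22 (the other 7 between -0.09 and 0.08) and for Usp5 at 1.66. WT replicate 8 was the highest for Usp30 at 0.71, and WT replicate 1 the lowest for Psmd4 at -0.23. In M833, replicate 3 was the highest for Usp25 at 0.85 and the lowest for Usp42 at -0.66 and for Uspl1 at -0.63. M833 replicate 4 was the lowest for Psmd4 at 0.0488 and for Psme4 at 0.15, against 0.56 to 0.82 on the other 7 arrays. Of these genes only Usp30 was called for M833 against WT.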

How the results depend on the processing

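All 23 called genes kept their direction in the 29 alternatives; of genes called in neither setting the direction was not compared. Counts are given as higher and lower for core, cap, Ube2 and Usp genes, against 0 and 2, 2 and 1, 0 and 4, and 8 and 6 as reported, then over all members (10 and 13) and for the pathway lists (45 called). Centring gave 1 and 0, 4 and 1, 0 and 2, 9 and 5, in all 14 and 8, and 42. Scaling gave 3 and 0, 5 and 1, 0 and 3, 6 and 4, in all 14 and 8, and 56. Without a dye term the counts were 0 and 0, 1 and 0, 0 and 4, 6 and 5, in all 7 and 9, and 27, with 780 and 1220 over all features. With the sample in Cy5 only they were 0 and 0, 0 and 0, 0 and 0, 2 and 1, in all 2 and 1, and 11, and in Cy3 only 0 and 0, 0 and 0, 0 and 1, 3 and 1, in all 3 and 2, and 16. All features gave 287 and 548 in Cy5 only, and 406 and 694 in Cy3 only. The sets as a random block gave 0 and 0, 0 and 0, 0 and 2, 4 and 1, in all 4 and 3, and 24, with 562 and 903 over all features. Set means as replicates gave 0 throughout, also over all features. Without WT replicates 1, 2, 5 and 6 the counts were 0 and 3, 3 and 4, 0 and 7, 8 and 6, in all 11 and 20, and 72. Without WT replicates 3, 4, 7 and 8 they were 4 and 2, 4 and 2, 1 and 4, 11 and 5, in all 20 and 13, and 69. The calls over all features rose as well, to 1758 and 2570 without the first WT set and 1848 and 2781 without the second. Without M833 replicates 1, 2, 5 and 6 the member and list counts were 0 and 1, 0 and 0, 0 and 3, 4 and 1, in all 4 and 5, and 25. Without M833 replicates 3, 4, 7 and 8 they were 0 and 0, 1 and 2, 0 and 2, 6 and 3, in all 7 and 7, and 24. Without M833 replicates 6, 7 and 8 they were 0 and 1, 2 and 1, 0 and 2, 6 and 3, in all 8 and 7, and 29. Over all features the counts were 661 and 1024, 699 and 1159, and 858 and 1348 in this order. Counting a gene where at least 1 of its probes was called and none the other way, single probes gave 0 and 2, 4 and 2, 0 and 5, 10 and 6, in all 14 and 15, and 53. Among uncalled genes with several probes, Psmc5, Psmd12, Usp38 and Usp48 had 1 probe higher and Ube2g1 1 lower. All 14 called genes with several probes had probes of the same sign. In Usp7 and Usp10 only 1 of 2 probes was called, as in Usp3, Usp8 and Usp16. Ube2d2a had 2 of 3 probes called and Ube2l3 2 of 4. Robust moderation gave 2 and 2 for the cap, and 1269 and 2014 over all features. Leaving out 1 array at a time gave 0 to 1 higher and 1 to 2 lower for the core, 1 to 3 and 1 to 3 for the cap, 0 and 4 to 5 for Ube2, 8 to 9 and 5 to 7 for Usp, 9 to 11 and 12 to 16 in all, and 39 to 47 for the lists. All features then gave 1114 to 1265 higher and 1756 to 2049 lower. Settings with fewer arrays have fewer samples to test; the cause of the other changes was not tested. Without WT replicates 3, 4, 7 and 8 Ube2g2 turned from -0.13 to 0.15, Usp21 from 0.04 to -0.10 and Usp32 from -0.002 to 0.15. No paired analysis was possible because the labels carry no replicate numbers, and the numbers used here follow the order of the series. Signal over background was not analysed here.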
